A study of Macaca fascicularis with 25 samples.

Results

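The libraries described here are the 4 that carry the label others among the Day 18 embryo regions of the cynomolgus monkey, Macaca fascicularis. They were chosen by that label, which GEO gives for 4 of the 25 libraries in the series, and were set against the 12 Day 18 libraries with a named lineage, 3 of hypoblast, 3 of epiblast and 6 of exmc. All 16 came from embryos collected with decidua and cut frozen. Patches of about 20 cells were cut out by laser microdissection, and their RNA was sequenced by Smart-seq2, which copies whole transcripts from few cells. The labels give no treatment, genotype or sex for any of them. The capture protocol names putative regions abbreviated as EPI, TE, EXMC and VE/YE, and the labels do not say which of these, if any, the libraries called others came from. A further 8 libraries from Day 20, in the title sets E20_1 and E20_2, and 1 from Day 16 carry no lineage and were used only to read levels.

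The epiblast is the layer from which the embryo proper forms. The hypoblast, a sheet under the epiblast, helps to form the yolk sac, and extraembryonic mesoderm fills the space between the embryo and the surrounding trophoblast. A section through an implanted embryo with decidua can also cut amnion, trophoblast, blood, vessels and maternal tissue, so a residual label can cover several cell types. The counts are listed under 28592 Ensembl identifiers, of which 0 could be paired with a gene name. Neither the lineage markers nor the markers of other cell types could therefore be read, and the label was not checked against them. Identifiers are described below by their levels, with 2 that were higher and 2 that were lower in the libraries labelled others given by name.

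Total counts of the libraries labelled others ran from 5142836 to 8875456, within the range of the named libraries, 2909114 to 10462278. Others library 4 had 14828 identifiers with a count and the other 3 had 16978 to 17142, where the named libraries had 11777 to 18034. The 10 most abundant identifiers took 10.2% to 18.7% of the counts in the libraries labelled others and 11.2% to 44.0% in the named ones. None of the 4 library measures tested separated the labels, namely the total, the identifiers detected, the share of the 10 most abundant and the number of identifiers raised in 1 library over the other 15 (exact two-sided permutation tests over 1820 choices of 4 libraries, adjusted p = 0.528 for each). Which embryo each region came from is not in the labels. The p-values here therefore rest on the spread from region to region, which may be technical, and regions cut from the same embryo would not be independent. The permutation tests also treat the 16 libraries as exchangeable, although same-numbered hypoblast and epiblast libraries deviated from their label means together (correlations of 0.254, 0.463 and 0.283). With exmc libraries 1 to 3 the correlations were 0.249, 0.486 and -0.0383 for hypoblast and 0.132, 0.384 and -0.155 for epiblast. With RNA from whole patches, fewer cells of a type and less RNA per cell cannot be told apart.

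The first question was which genes were raised in most of the libraries labelled others and which in a single one. An identifier was counted as raised in a library where its level was at least 5 CPM (the count relative to the library's total, scaled by TMM, edgeR's trimmed mean of M-values) and at least 2 times its highest level in the 12 named libraries. By this measure 526 of 28592 identifiers (1.84%) were raised in at least 1 of the 4 libraries, and 445 of them, 84.6%, in exactly 1 (1.56% of all identifiers). A further 74 were raised in 2 libraries, 7 in 3 (0.0245% of all identifiers) and 0 in all 4. The libraries contributed unequally. Others library 4 had 243 raised identifiers, 228 of them in that library alone. Others library 3 had 41, of which 36 were its own. These counts come from the levels that define them and are descriptions without a test.

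**Figure D1:**
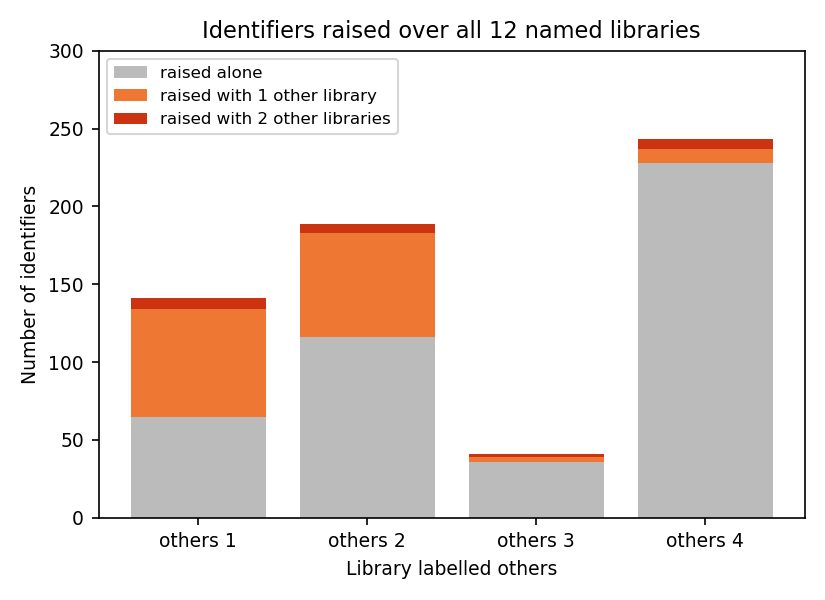
Number of identifiers raised in each of the 4 libraries labelled others, at 5 CPM or more and 2 times or more the highest of the 12 named libraries, split by whether they were raised in that library alone or also in 1 or 2 of the other 3. Library 4 has the tallest bar, 243, nearly all its own, while libraries 1 and 2 share much of theirs.

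Libraries 1 and 2 shared a large set. Both raised the same 70 identifiers (0.245% of all 28592), which is 49.6% of the 141 raised in library 1 and 37.0% of the 189 raised in library 2. Every other pairing of the 4 libraries shared between 1 and 10. Of the 81 identifiers raised in 2 or more libraries, these 70 were 86.4%. Only 5 of them were also raised in library 4 and 1 was also raised in library 3. Libraries 3 and 4, by comparison, shared 3 raised identifiers with each other.

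By definition the 70 identifiers were higher in libraries 1 and 2 than in every named library, so their levels there are descriptions. The median of the 70 was 34.6 CPM in others library 1 and 48.3 CPM in library 2, and 1.48 CPM in library 3 and 0.385 CPM in library 4. In the named libraries the median lay between 0 and 4.41 CPM, the highest being that of exmc library 6. In both library 1 and library 2, 16 of the 70 reached at least 100 CPM. Libraries 3 and 4 had no count for 18 and 28 of them, and stood above the highest named library for 7 and 10.

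Single members show the range. The most abundant stood at 1473 CPM in others library 1 and 953 CPM in library 2, and at 2.955 CPM and 1.54 CPM in libraries 3 and 4. Its highest named level was 418 CPM. Of the 70, 3 had no count in any named library. Among the rest, the member with the largest ratio of its lower level in libraries 1 and 2 to its highest named level, 36.8, stood at 569, 224, 4.62 and 0.154 CPM in libraries 1 to 4, with no named library above 6.08 CPM. Another stood at 504, 172, 9.97 and 0.308 CPM, with a named maximum of 6.32 CPM. In each of the 3 members with values given here, libraries 1 and 2 lay above every named library, as the definition requires, and library 4 did not. Library 3 lay below the named maximum in the first 2 and above it in the last. At the edge of the definition, the closest member inside stood at 13.029 and 16.229 CPM in libraries 1 and 2 against a named maximum of 6.505 CPM. The closest identifier outside stood at 152 and 104 CPM against 52.5 CPM.

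**Figure D2:**
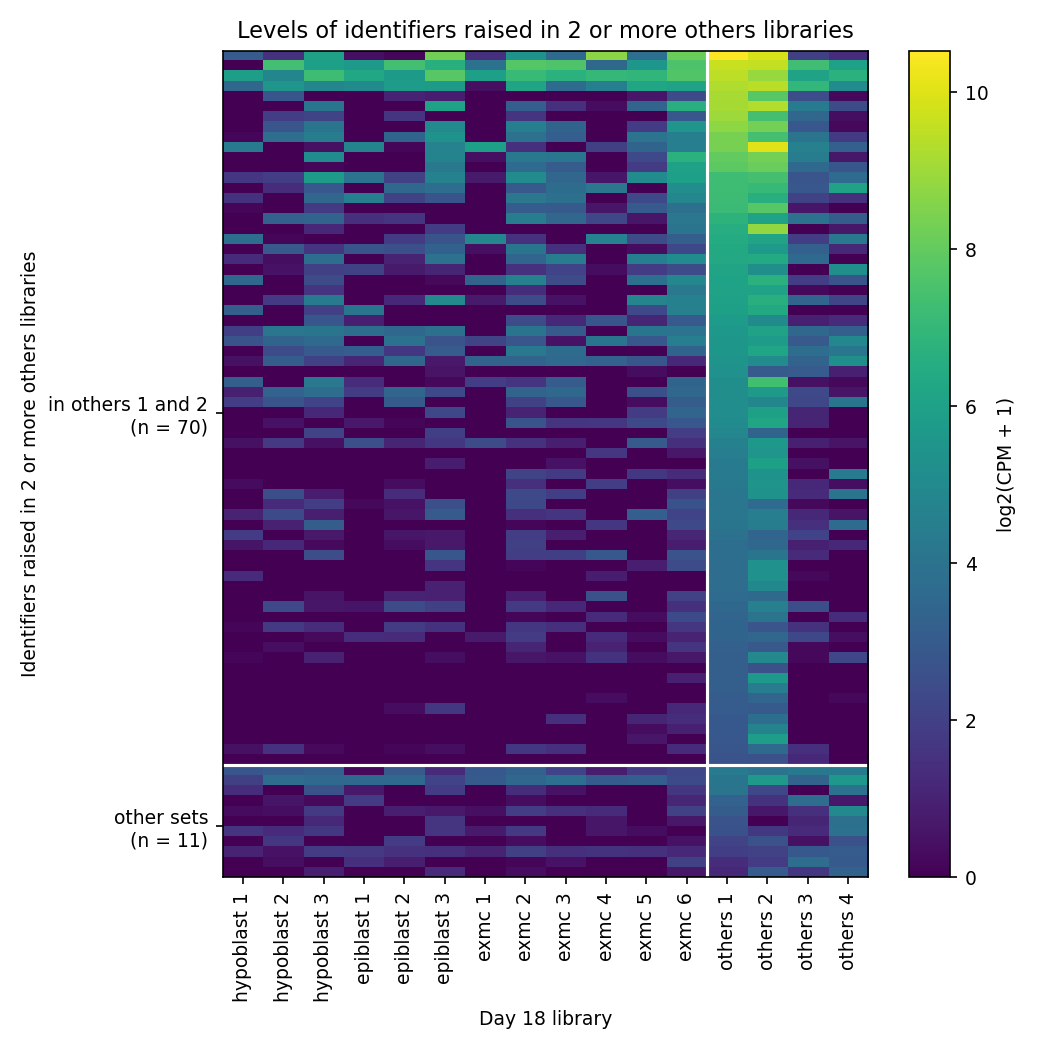
Level, as log2(CPM + 1), of the 81 identifiers raised in 2 or more libraries labelled others, with 1 row per identifier and 1 column per Day 18 library. White lines part the 70 raised in others libraries 1 and 2 from the remaining 11, and the named libraries from the others. Columns 1 and 2 of the others are bright along the upper block, where columns 3 and 4 resemble the named libraries.

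The named libraries were not alike in the 70 identifiers. Exmc library 6 was the highest of the 12 for 26 of them, exmc library 2 for 9, and epiblast library 3 and exmc library 4 for 7 each. With all 25 libraries scaled together, the 70 summed to 8799 CPM in others library 1 and 9067 CPM in library 2. They summed to 614.8 CPM in library 3 and 527.5 CPM in library 4. Among the named libraries the sum ran from 158.9 CPM in hypoblast library 1 to 1527 CPM in exmc library 6. A count was found for 61 of the 70 in exmc library 6 and for 16 in exmc library 1, which also had the fewest identifiers detected.

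Day 20 libraries gave a reading of the 70 identifiers in samples whose levels do not enter the definition of the set. The set and this reading were chosen for the report after their values had been seen, so the Day 20 values are descriptions. Library 2 of set E20_1 summed to 10140 CPM, with a median of 33.5 CPM and a count for 65 of the 70. The other 7 Day 20 libraries summed to between 312.7 and 2444 CPM, with medians of 0.355 to 2.72 CPM, and the Day 16 library to 548.8 CPM with a median of 0. One Day 20 library was thus at the level of others libraries 1 and 2, and the rest of its set was not.

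**Figure D3:**
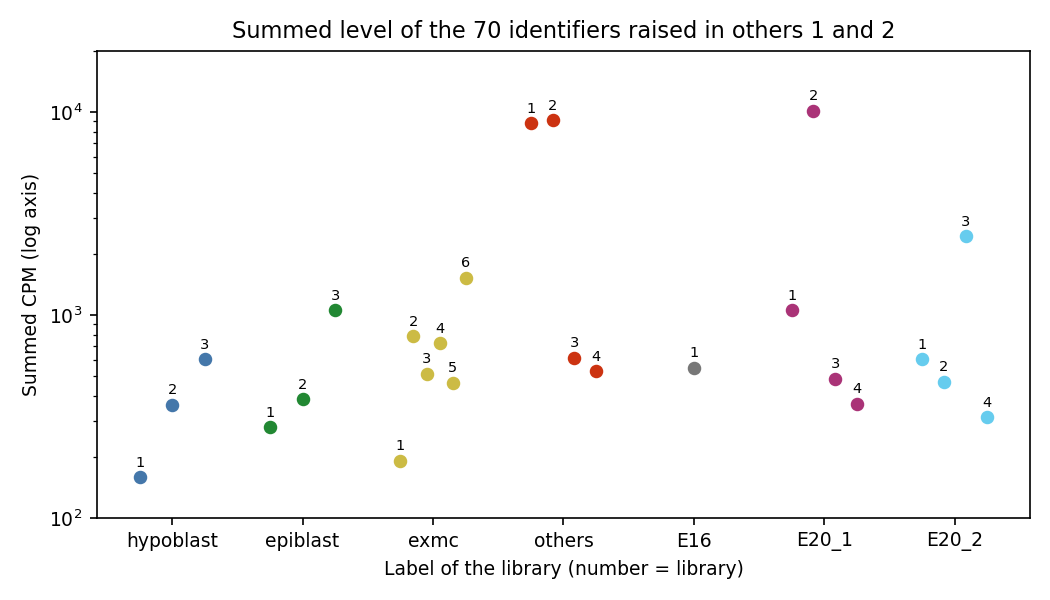
Summed CPM on a log axis of the 70 identifiers raised in others libraries 1 and 2, with 1 point per library, grouped by label and numbered by library, all 25 libraries scaled together. Others 1 and 2 and library 2 of E20_1 sit between 8799 and 10140 CPM, and no other library exceeds 2444 CPM.

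The same library stood out when the Day 20 libraries were ranked only against each other. Of the 70 identifiers, 54 reached 5 CPM in some Day 20 library, and 49 of these (90.7%) had their highest Day 20 level in library 2 of E20_1. Over all 13506 identifiers that reached 5 CPM at Day 20 the share was 9.77%. The other libraries of E20_1 held 20.5%, 4.95% and 12.7% of all highest values, and those of E20_2 held 9.12%, 12.2%, 11.1% and 19.6%. In 39 of the 54 (72.2%) this library was at least 2 times each of the other 7, against 2.44% of all identifiers. No Day 18 library entered this ranking, but the ranking was chosen after its values had been seen and is not an independent test.

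The same ranking was made for the identifiers raised in a single library. Of those raised in others library 2 alone, 59 of the 82 that reached 5 CPM at Day 20 (72.0%) were highest in library 2 of E20_1. For those raised in library 1 alone it was 18 of 36 (50.0%). For those raised in library 4 alone it was 11 of 108 (10.2%), and for those of library 3 alone 1 of 13 (7.69%), beside the 9.77% of all identifiers. Identifiers raised in library 2 alone had a median of 4.34 CPM in library 1, 14.8 CPM in library 2, 1.39 CPM in library 3 and 0.150 CPM in library 4. Those raised in library 1 alone had a median of 3.59 CPM in library 2, 1.30 CPM in library 3 and 0 in library 4.

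**Figure D4:**
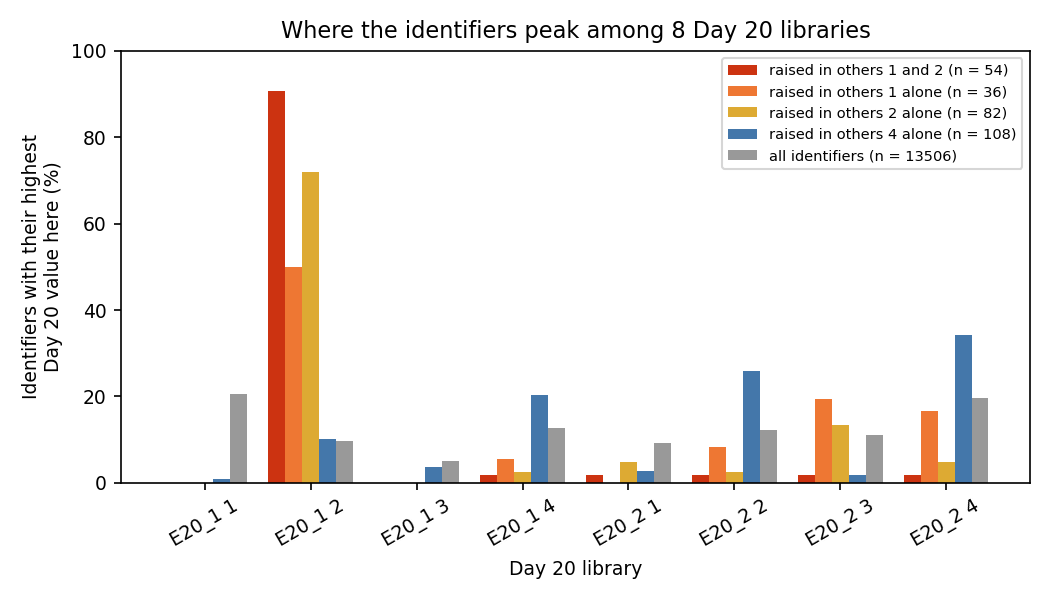
Percent of the identifiers of each list whose highest level among the 8 Day 20 libraries was in the library on the x axis, for identifiers that reached 5 CPM at Day 20 (n in the key). Library 2 of E20_1 holds 90.7% of those raised in others 1 and 2, and 9.77% of all identifiers.

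Others library 4 was different. Its 228 own identifiers had a median of 12.7 CPM there and of 0.598 to 0.927 CPM in the other 3, and no Day 20 library held more than 34.3% of their highest values. That library was library 4 of E20_2, which held 19.6% of all identifiers. Others library 4 also had the fewest identifiers detected of the 4, 14828. Among the named libraries, those with the most identifiers raised over all 15 others, exmc libraries 4, 1 and 3 with 1519, 832 and 512, had 13450, 11777 and 15332 detected. Others libraries 1 to 4 had 52, 113, 29 and 213. The part of low detection in the identifiers of library 4 was not tested.

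The same definition was applied to each named label over the rest of Day 18, whose numbers of libraries differ. Hypoblast had 241 raised identifiers, of which 2 were raised in 2 or more of its 3 libraries. Epiblast had 330, of which 2 were raised in 2 or more of its 3. Exmc had 3840, with 438 raised in 2 or more of its 6 and 1 in more than 3. Over all 120 pairs of Day 18 libraries, the number of identifiers in which both members were at least 2 times the other 14 had a median of 2. Others 1 and 2 had 61, and 3 pairs had more, namely exmc 4 and exmc 6 with 106, hypoblast 1 and exmc 4 with 81, and exmc 1 and exmc 4 with 80. Exmc 4 was in all 3 of those pairs.

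Identifiers raised in most of the libraries were few. Of the 7 that were raised in 3 of 4, 5 were raised in libraries 1, 2 and 4, 1 in libraries 1, 2 and 3, and 1 in libraries 1, 3 and 4. The highest level of any of the 7 in the 4 libraries was 70.5 CPM. Across all identifiers, 12 (0.042%) had all 4 libraries above every named library and 0 had all 4 below. Only 3 of the 7 reached 5 CPM in some Day 20 library, and each of those was highest in a different one.

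By the smallest unadjusted p among these 7, ENSMFAG00000044728 and ENSMFAG00000035694 were taken as examples. ENSMFAG00000044728 stood at 38.6, 6.80, 7.02 and 0.925 CPM in others libraries 1 to 4, and its named levels ran from 0 to 0.477 CPM with a median of 0. The groups did not overlap, but library 1 held more than the other 3 together, and the level in library 4 rests on 6 reads. It passed the filter on low counts only through the libraries labelled others, and failed it without others library 1, 2 or 3. ENSMFAG00000035694 stood at 18.7, 41.2, 0 and 18.5 CPM in libraries 1 to 4. It was at 0 in all 6 hypoblast and epiblast libraries and reached 3.43 CPM in exmc. Here 3 libraries were above every named one, and library 3 had no read. At Day 20 the former was at 1.39 CPM in library 1 of E20_1 and at 0 in the other 7, and the latter did not exceed 1.93 CPM. Both were chosen for high levels in others and for a small p, so no p is given as support, and since libraries of whole groups were at 0, no fold is given for either.

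The fit across all identifiers called none. In edgeR's quasi-likelihood test of others against the mean of the 3 named labels, 0 of 15830 identifiers (0%) passed an adjusted p of 0.05, and the smallest adjusted p was 0.369. At an unadjusted p under 0.05 there were 462 (2.92%), 385 higher (2.43%) and 77 lower (0.486%) in others. The 2.92% is below the share of 0.05 that evenly spread p-values would give with no difference. No set of changed identifiers is therefore read from the 462, and their make-up is only described. The split of 385 higher and 77 lower was not kept with the 12 pooled as a single group, at 149 higher and 183 lower, again with 0 called. Pooling changed both the averaging and the estimate of spread, and their parts were not tested. In all other settings run, 69.3% to 92.2% were higher. DESeq2 called 20 of 16063 identifiers, 14 higher and 6 lower, and limma voom called 1 of 15830. Of the 20, 8 belonged to the 70 shared by libraries 1 and 2, which were chosen for high levels in others. In 13 of the 20, higher and lower calls together, a single library held over 1/2 of the summed CPM of the 4 labelled others. Over all identifiers tested in edgeR the share was 31.0%. For a lower call, such a share does not mean that 1 library carried it. Of the 70, 59 passed the filter on low counts, and edgeR called 0 of those.

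The 385 were mostly carried by single libraries. In 268 of them (69.6%) a single library held over 1/2 of the summed CPM of the 4, where the share over all 15830 tested was 31.0%. That library was library 4 in 97 cases, library 2 in 95, library 1 in 58 and library 3 in 18. In 142 of the 385 (36.9%) all 4 libraries lay above the median of the 12 named, against 10.7% of all tested, and in 42 (10.9%) at least 3 lay above every named library, against 0.594%. In only 5 did all 4 lie above every named library. Among the 77 lower identifiers a single library held over 1/2 of the summed CPM of the 4 in 23 (29.9%), near the 31.0% of all tested. All 4 libraries lay below the named median in 60 (77.9%, against 6.68% of all tested), at least 3 below every named library in 4 (5.19%, against 0.101%), and all 4 below every named library in 0. These shares come from the contrast that chose the identifiers and are descriptions.

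Lowered identifiers, those at or under 1/2 of the lowest of 12 named libraries where that was at least 5 CPM, numbered 85 (0.297% of all identifiers). Only identifiers at 5 CPM or more in all 12 could qualify, so this share cannot be set against that of raised identifiers. Library 4, the others library with the fewest identifiers detected, held 58 of the 85, and 1 was lowered in 2 libraries, 1 and 4. The 2 lower identifiers with the smallest unadjusted p at a named mean of at least 20 CPM are given as examples. ENSMFAG00000002094 stood at 66.7, 37.7, 52.4 and 46.6 CPM in others libraries 1 to 4, with a mean of 50.9 CPM ± 12.2 (SD, n = 4). Hypoblast had a mean of 92.0 CPM ± 6.37 (SD, n = 3). Epiblast averaged 72.8 CPM ± 6.41 (SD, n = 3), and for exmc the mean was 107 CPM ± 30.5 (SD, n = 6). Libraries 2, 3 and 4 lay below the lowest named library, 59.5 CPM, and library 1 above it (log2 fold change -0.81, SE 0.29, edgeR adjusted p = 1.00). At Day 20 it ran from 21.5 to 56.3 CPM, on the scale of all 25 libraries.

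ENSMFAG00000031337 stood at 0.704, 0, 0 and 0.925 CPM in the libraries labelled others and at 0.533 to 221 CPM in the named ones, with a median of 11.2 CPM. The groups overlapped, because hypoblast library 2 with 0.533 CPM and exmc library 3 with 0.821 CPM lay under the highest of the others. Its named levels were uneven, as exmc library 4 had 221 CPM and the remaining 11 had at most 38.1 CPM (log2 fold change -5.69, SE 1.84, adjusted p = 1.00 in edgeR and 0.0223 in DESeq2). Hypoblast libraries 1 and 3 had 31.4 and 31.0 CPM, and epiblast library 3 had 27.0 CPM. Without exmc library 4 the log2 fold change was -5.05.

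Set against each named label in the same fit, others gave 0 calls in edgeR each time. These comparisons share the libraries labelled others. Against hypoblast, 447 identifiers (2.82%) had an unadjusted p under 0.05, with 314 higher (1.98%) and 133 lower (0.84%). Against epiblast it was 393 (2.48%), with 323 higher (2.04%) and 70 lower (0.442%). Against exmc it was 609 (3.85%), with 226 higher (1.43%) and 383 lower (2.42%). Each of these totals was also below the share of 0.05 that no difference would give. With DESeq2's size factors the split against exmc was 184 higher and 498 lower, and the median log2 fold change over all tested identifiers moved from -0.07 to -0.17. The direction of this split was not stable, as it was 680 higher and 214 lower with the replicate number as a block (median 0.31), 718 and 461 in limma voom, 324 and 332 without exmc library 4, and 382 and 367 without exmc library 6. ENSMFAG00000002094 had a log2 fold change of -0.86 (SE 0.36) against hypoblast, -0.52 (SE 0.36) against epiblast and -1.07 (SE 0.32) against exmc, none past the threshold (edgeR adjusted p of 1 for the first 2 and 1.00 for exmc).

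The last question was whether the 4 libraries were closer to each other than to the named lineages over all tested identifiers. Their mean Spearman correlation of log2 CPM was 0.835 among themselves and 0.804 with the 12 named libraries. The difference of 0.0314 did not pass (exact one-sided permutation test over 1820 choices of 4 of 16 libraries, p = 0.238). Without exmc libraries 1 and 4 it was 0.000388 (exact permutation p = 0.428). Within the label, libraries 1 and 2 correlated at 0.917, and each was the nearest library of the other. Named libraries came close, with library 1 at 0.902 with exmc 6 and 0.896 with hypoblast 3. Library 2 stood at 0.902 with hypoblast 3 and 0.885 with epiblast 3. Library 3 correlated at 0.855 and 0.863 with libraries 1 and 2, but its nearest libraries were epiblast 2 at 0.940, exmc 2 at 0.936 and hypoblast 2 at 0.922. Those 3, each of another label, correlated with one another at 0.918 to 0.938. Library 4 correlated at 0.787 to 0.800 with the other 3 and at 0.840 with hypoblast 1, its nearest. By label, the 4 averaged 0.838 with hypoblast, 0.833 with epiblast and 0.772 with exmc. The exmc mean included exmc library 4, at 0.556 to 0.643 with the 4, and exmc library 1, at 0.668 to 0.755. Those 2 had 13450 and 11777 identifiers detected, and the remaining exmc libraries stood at 0.740 to 0.936. These coefficients are descriptions that share libraries, depth and detection.

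**Figure D5:**
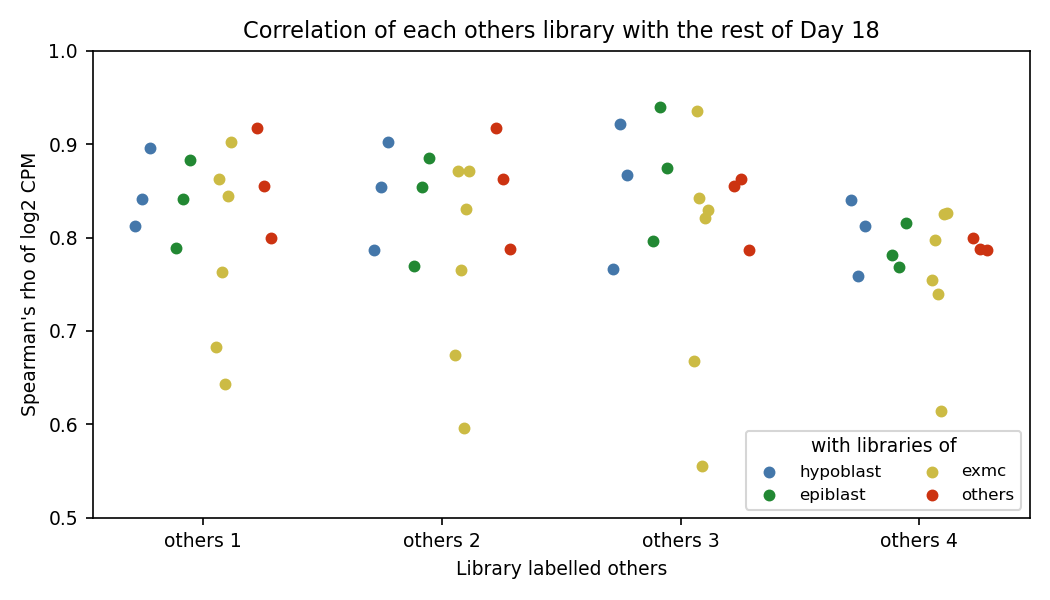
Spearman's rho of log2 CPM over 15830 identifiers between each library labelled others (x axis) and every other Day 18 library, coloured by label. For libraries 1 and 2 the highest point is the one they share, 0.917, and for libraries 3 and 4 it belongs to a named lineage.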

How the data were processed

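The authors deposited read counts, as whole numbers not normalized, in a table of Ensembl identifiers by library. STAR 2.3.4 and RSEM are named in the submitters' processing notes without their roles. Genome build, annotation and strand use are not given in sources used here, so identifiers that share reads with a close copy or an overlapping gene are uncertain. Columns were matched to samples by title, and groups were taken from the labels.

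The fits used edgeR 4.0.16 under R 4.3.3 (filterByExpr, TMM, quasi-likelihood test, two-sided, Benjamini-Hochberg adjustment, all 16 Day 18 libraries in 1 fit). The named side was the unweighted mean of the 3 group coefficients. The biological coefficient of variation was 1.03. Log2 CPM used a prior count of 2. DESeq2 1.42.0 (Wald test) and limma 3.58.1 (voom with quality weights) were alternatives, beside other filters, scaling, covariates, pooling and leaving out libraries. Python 3.11.15 with numpy 2.4.6, pandas 2.3.3 and matplotlib 3.10.9 served for classes, permutation tests and figures. The fits were tested on simulated data.

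The libraries, definitions and tests were chosen with earlier results of these data known, and the set shared by libraries 1 and 2 and the Day 20 ranking were chosen after seeing their values. Named identifiers were the 2 with the smallest unadjusted p among those raised in at least 3 libraries, and the 2 lower ones with the smallest p at a named mean of at least 20 CPM. Counts carry no molecular identifiers, so total depth bounds counting error only. The marker lists were not run, as 0 identifiers matched a name.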

Additional observations from a re-analysis of the deposited data

Results flagged for a closer look

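A library standing apart from its own label was searched for in 18 sets, namely 9 measures in others and in exmc. The search found 5 values, and a rate of 1 in 20 sets would give about 0.9. This 0.9 is not a test, because the sets share libraries and include levels of identifiers chosen for their contrast in these same libraries. A single read where the other libraries of a label were at 0 would also stand apart at any level. No excess over chance is read from the 5. Others library 4 had 14828 identifiers detected, against 16978 to 17142 in the other 3. Exmc library 3 gave 44.0% of its counts to its 10 most abundant identifiers, against 15.9% to 22.7% in the other exmc libraries. ENSMFAG00000044728 stood at 38.6 CPM in others library 1, against 0.925 to 7.02 CPM in the other 3, and at 0.286 CPM, a single read, in exmc library 5, where the other exmc libraries were at 0. ENSMFAG00000031337 stood at 221 CPM in exmc library 4, against 0.821 to 38.1 CPM in the rest of exmc.

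The identifiers raised in others libraries 1 and 2 also had a signal in libraries that no comparison between groups used. Their summed level was 10140 CPM in library 2 of E20_1 and 2444 CPM in library 3 of E20_2, where the named Day 18 libraries ran from 158.9 to 1527 CPM. In library 3 of E20_2 the median was 2.02 CPM, within the range of medians of the other Day 20 libraries apart from library 2 of E20_1.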

How the results depend on the processing

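With edgeR, 0 identifiers were called in each of the 4 comparisons under every alternative run and every omission of 1 library. DESeq2 called 20 of 16063 against the named lineages, 31 of 22723 against hypoblast, 44 of 16063 against epiblast and 17 of 20005 against exmc. Limma voom called 1 against the named lineages and 0 in the other 3. The cause of these differences was not tested. The split against hypoblast, 314 higher and 133 lower, was 83 and 84 at 10 CPM, 282 and 270 with the covariate of detected genes and 344 and 327 in the fit of only those 2 groups.

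Counts at an unadjusted p under 0.05, in the order named lineages, hypoblast, epiblast and exmc, were 1856, 897, 788 and 1515 with no filter on low counts, 144, 167, 125 and 395 with at least 10 CPM in 3 libraries, and 1456, 1907, 1050 and 1179 in limma voom. DESeq2 gave 627 against epiblast and 1059 against exmc. Fits of only the 2 groups compared gave 671 against hypoblast and 269 against exmc, and the covariate of detected genes gave 372 against exmc. Without exmc libraries 1 and 4 there were 753 against hypoblast and 622 against epiblast. Leaving out 1 library gave 296 to 713, 343 to 590, 261 to 513 and 314 to 807. Against the named lineages the 462 became 296 when others library 2 was left out, 699 when epiblast library 2 was, and 703 and 713 when hypoblast library 1 or 3 was. Against epiblast the 393 became 261 without epiblast library 1, and against exmc the 609 became 314 without others library 2.

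A replicate block in edgeR gave 0 calls and 589, 441, 325 and 894 identifiers at an unadjusted p under 0.05. The numbers of others were not taken to pair with those of the named labels, since libraries of equal number deviated from their groups with correlations of -0.201 to 0.309, and 1 of 10 named libraries correlated best with the others library of its own number. The matches had a pattern of another kind, as all 3 libraries numbered 1 correlated best with others library 4, all 3 numbered 2 with others library 3, and hypoblast and epiblast 3 with others library 2. No other pairing was fitted.

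Raised identifiers depended on the bar. Those in more than 2 of the 4 libraries numbered 15 at a minimum of 1 CPM, 63 for any excess over the named libraries and 3 at 4 times. Those in a single library numbered 1008, 1925 and 168 in the same order and 285 at 10 CPM. Those raised in both others 1 and 2 numbered 115, 296 and 27. Leaving out 1 library gave 7 to 78, 226 to 546 and 70 to 90. The 78 and 72 arose without others library 3 and library 4, 12 and 14 without libraries 1 and 2, where 2 of 3 libraries suffice, and 226 without library 4. The difference in likeness ran from 0.0107 to 0.0663 without 1 library and was 0.000388 without exmc libraries 1 and 4, and differences in library measures at 300900 to 1545000 counts, 854.8 to 1737 identifiers detected, -5.094 to -1.471 percentage points and -252.9 to -105.7 raised identifiers, none past the threshold. The 4 named identifiers kept their direction wherever they were tested, and DESeq2 called 3 of them. They were chosen by their p in these same libraries, so this describes them and is not support. ENSMFAG00000044728 was not tested at 10 CPM or, by the filter, in 3 of the omissions.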

Other observations

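The 228 identifiers raised in others library 4 alone summed to 7278 CPM there and to 3584 CPM in the Day 16 library, on the scale of all 25 libraries. Their sums were 744.9 to 895.8 CPM in the other libraries labelled others and 693.1 to 2357 CPM at Day 20. The Day 16 library had a count for 91 of the 228 and a median of 0, so its sum rested on a part of them. The median in others library 4 was 12.7 CPM.

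Across labels, others library 4 and exmc library 4 were both at least 2 times the other 14 Day 18 libraries in 51 identifiers, and others library 4 and exmc library 1 in 48. Such counts were not particular to this pairing, being 81 for hypoblast 1 with exmc 4, 53 for hypoblast 1 with exmc 1 and 52 for epiblast 1 with exmc 4. Others library 4 had 21 with hypoblast 1 and 16 with epiblast 1. Over all tested identifiers it correlated at 0.614 with exmc 4, 0.755 with exmc 1 and 0.840 with hypoblast 1. Within its own label the number of shared identifiers was 4 with library 1, 2 with library 2 and 2 with library 3.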
